A study of Mus musculus with 6 samples.

Results

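The family of miR-221 and miR-222 and that of miR-130 and miR-301 are microRNAs (miRNAs) known from blood vessels, and their levels were measured in myocardium, the heart's muscle wall, of mice. They were taken as every mature miRNA whose name begins with miR-221, miR-222, miR-130a, miR-130b, miR-301a or miR-301b, which gave 12 of the 984 mature miRNAs in the files. The study sequenced small RNA from myocardial tissue at a post-mortem interval, the time between death and sampling, of 0 h (3 libraries) and 6 d (3 libraries). No treatment or genetic change is named, and strain, age and sex are not given in these sources. Whether libraries of 1 group stem from different animals is not stated, so a p-value here reflects only how far these libraries spread, which may be technical.

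A miRNA is cut from a hairpin precursor, whose left and right strands are the 5p and the 3p arm. As a rule 1 arm is loaded into an Argonaute protein and silences messages that pair with its seed, bases 2 to 8, and the other is degraded. The pair miR-221 and miR-222 is known for restraining endothelial cells, in part by silencing the receptor Kit, and for driving smooth muscle cells to divide through the cell-cycle inhibitors p27 and p57. In the other family, miR-130a is known as a promoter of angiogenesis that silences the homeobox genes Gax and Hoxa5, and miR-130b and miR-301a are studied in vascular remodelling and in tumours.

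RefSeq's sequence table (GRCm38.p6) held a mature sequence for 10 of the 12 members. The 3p arms are shown first because they define the families, and capitals mark the seed.
miR-221-3p: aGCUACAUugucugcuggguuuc
miR-222-3p: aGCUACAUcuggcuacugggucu
miR-130a-3p: cAGUGCAAuguuaaaagggcau
miR-130b-3p: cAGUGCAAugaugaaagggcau
miR-301a-3p: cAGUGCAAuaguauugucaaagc
The 5p arms are shown because reads of miR-130b and miR-301a came mostly from them in fresh tissue.
miR-221-5p: aCCUGGCAuacaauguagauuucugu
miR-130a-5p: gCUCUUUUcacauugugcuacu
miR-130b-5p: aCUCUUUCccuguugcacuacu
miR-301a-5p: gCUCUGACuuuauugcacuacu
miR-301b-5p: gCUCUGACuagguugcacuacu

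Within each family the 3p arms share a seed but differ downstream. Compared base by base from the 5′ end, miR-221-3p and miR-222-3p matched at 11 of 23 positions. The pair miR-130a-3p and miR-130b-3p matched at 20 of 22, so how reads near to both were assigned could matter, and no source used here names the counting tool. The 5p arms of miR-130a and miR-130b have different seeds, while those of miR-301a and miR-301b share one. Among the files' miRNAs with a sequence in the table, no other had either 3p seed.

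In RefSeq's GRCm38.p6, Mir221 and Mir222 lie 504 bases apart on the minus strand of chromosome X, outside other genes in the GENCODE M21 annotation. Mir130b and Mir301b lie 257 bases apart on the minus strand of chromosome 16, in an intron of the protein-coding gene 2610318N02Rik. Mir301, which encodes miR-301a, lies in an intron of Ska2, a gene of the mitotic spindle, on the plus strand of chromosome 11. Mir130a is on the minus strand of chromosome 2, outside other genes. The Mir130b hairpin (chr16:17124061-17124142, minus strand) and the Mir130a hairpin (chr2:84741115-84741178, minus strand) are printed with both mature arms in capitals, 5p first. Their arm ratios are compared below, that of Mir130a on only 19 reads of its 5p arm.
Mir130b: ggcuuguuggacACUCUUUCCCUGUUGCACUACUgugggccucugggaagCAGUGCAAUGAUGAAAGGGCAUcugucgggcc
Mir130a: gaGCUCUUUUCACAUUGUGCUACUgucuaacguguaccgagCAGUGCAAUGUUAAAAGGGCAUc

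Levels are given as normalised CPM, reads per 1000000 miRNA reads divided by a further factor per library. Mature miRNAs are of similar length, so levels were compared between them without a length correction. The 0 h libraries held 4468547 to 7906557 miRNA reads and the 6 d libraries 617069 to 1889594, so a floor of 3 reads was 0.463 to 0.730 normalised CPM at 0 h and 1.91 to 3.97 at 6 d. The fit across all miRNAs was limma on log2(normalised CPM + 1) with Benjamini-Hochberg adjustment, over the 470 miRNAs at 1 or more in at least 3 libraries. A call is an adjusted p under 0.05. Fold changes on this scale understate the change of low miRNAs and are relative to the other miRNAs of a library. In bulk tissue, fewer cells of a type and less RNA per cell cannot be told apart. Heart muscle miRNAs (5 listed, miR-1a-3p among them) held 22.8% to 37.4% of reads at 0 h and 20.4% to 44.6% at 6 d. This share mostly tracks miR-1a-3p, with means of 345224 and 317670 normalised CPM. Of the 5, 1 was called higher and 2 lower at 6 d. Over all tested miRNAs the log2 fold changes had a median of -0.33.

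Both families were small in this tissue. The miR-221 and miR-222 rows held 0.0309% ± 0.0041 of all miRNA reads in fresh tissue and 0.0473% ± 0.0197 at 6 d (SD, n = 3 each, exact two-sided permutation p = 0.3, adjusted over both families 0.6). The miR-130 and miR-301 rows held 0.0054% ± 0.0014 and 0.0049% ± 0.0004 (SD, n = 3 each, exact two-sided permutation p = 0.6, adjusted 0.6). The groups overlapped in both families.

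At 0 h miR-221-3p stood highest, with 309.9 ± 14.5 normalised CPM (SD, n = 3) and a rank of 82 to 86 among the 984 miRNAs. Next came miR-130a-3p with 37.8 ± 7.80 and miR-222-3p with 33.9 ± 4.41, whose libraries overlapped. Then followed miR-221-5p with 16.9 ± 2.94, miR-130b-5p with 10.7 ± 0.776 and miR-301a-5p with 10.6 ± 4.09 normalised CPM, and the libraries of miR-301a-5p overlapped those of both others. The levels of miR-130b-3p (1.41 ± 0.773) and miR-301a-3p (1.23 ± 0.345) also overlapped, and the other members had a mean under 1.
At 6 d the order was miR-221-3p with 290.7 ± 34.8, miR-222-3p with 82.0 ± 12.7 and miR-130a-3p with 24.4 ± 13.6 normalised CPM, with no overlap between these neighbours. Below them miR-221-5p (7.97 ± 1.23), miR-130b-3p (7.07 ± 1.05) and miR-130b-5p (6.36 ± 2.15) overlapped, and no other member had a mean above 3.23.

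**Figure D1:**
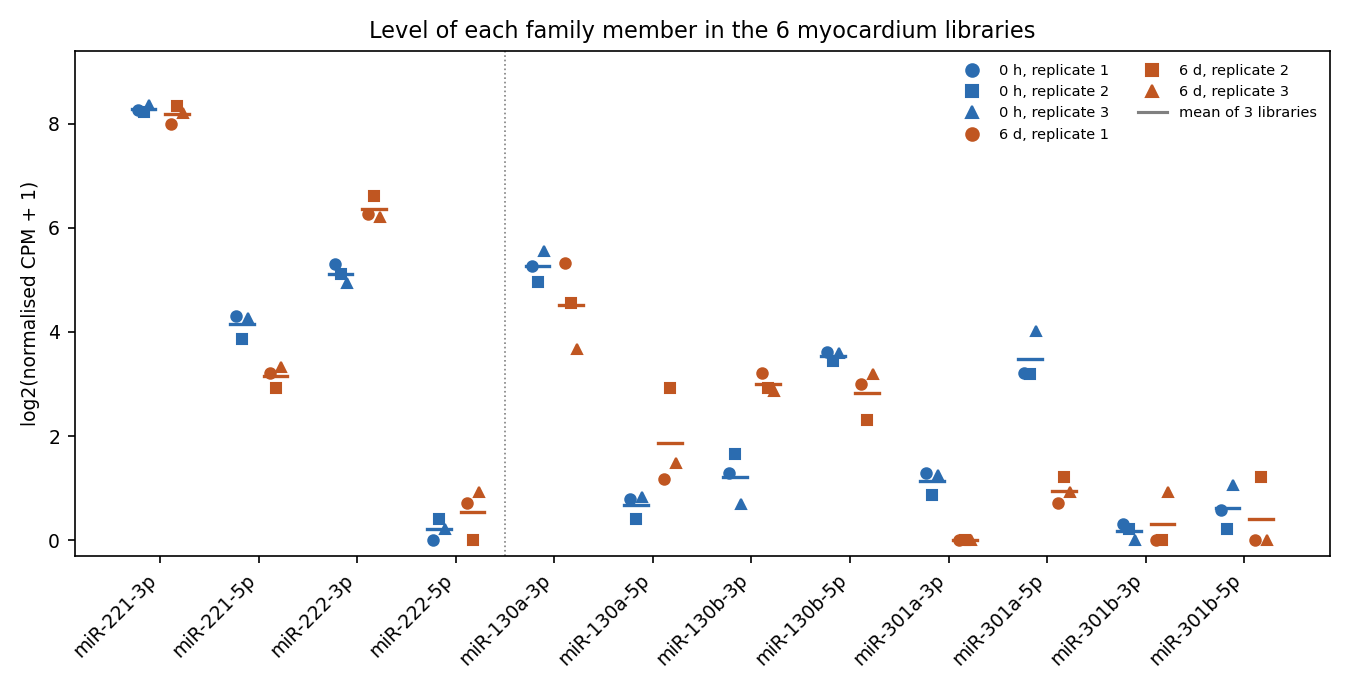
Level of the 12 family members in each library, as log2(normalised CPM + 1), with 0 h in blue, 6 d in orange, a symbol per replicate and a line at the mean of 3 libraries; the dotted line separates the families. All 6 d libraries lie above all 0 h libraries for miR-222-3p, miR-130b-3p and miR-130a-5p, and below them for miR-221-5p, miR-130b-5p, miR-301a-5p and miR-301a-3p.

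Of the 12 members, 8 passed the filter on low values, 3 of the first family and 5 of the second. Just inside it was miR-130a-5p, at 1 or more in 3 libraries, and just outside were miR-301a-3p and miR-301b-5p, each in 2. Of the 8, miR-222-3p and miR-130b-3p rose and miR-301a-5p fell, which is 37.5% called against 37.9% of all tested miRNAs, a share near the background. Over all tested miRNAs 16% were called higher and 21.9% lower. By edgeR, which tested 7 members, the same 3 were called, against 43% of 363 miRNAs. The groups did not overlap for 6 of the 8 members (3 above and 3 below at 6 d), against 50.6% of all tested miRNAs (19.8% above and 30.9% below). When levels were scaled by library totals alone, the groups overlapped for miR-221-5p and miR-130b-5p. The median log2 fold change of the 8 was -0.41. These counts are descriptions, since the filter itself favours members that are high in 1 group. The level of miR-130a-5p reached 1 normalised CPM at 6 d alone, and neither miR-301a-5p without its 0 h libraries nor miR-130b-3p without its 6 d libraries would have passed. With no filter the same 3 of all 12 members were called, against 15.5% of the 984 miRNAs, with limma adjusted p of 0.035 for miR-222-3p, 0.019 for miR-130b-3p and 0.0021 for miR-301a-5p.

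Of the cluster partners, miR-222-3p rose and miR-221-3p was not called. The level of mmu-miR-221-3p was 306, 298 and 326 normalised CPM in the 0 h libraries and 255, 324 and 293 in the 6 d libraries. These groups overlapped, and the log2 fold change was -0.098 ± 0.292 (SE, limma adjusted p = 0.80) with a 95% interval of -0.75 to 0.55. Its sign depended on the scaling, with 0.36 when only library totals were used.
For mmu-miR-222-3p the levels were 38.5, 33.6 and 29.7 normalised CPM at 0 h and 76.4, 96.6 and 73.1 at 6 d, from 158, 202 and 192 reads and from 120, 73 and 81. Every 6 d library was higher than every 0 h library. It rose by a log2 fold change of 1.25 ± 0.32 (SE, limma adjusted p = 0.013), and edgeR's quasi-likelihood test on the reads gave 1.45 (adjusted p = 0.010).

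A ratio of these miRNAs within a library does not depend on how the library was scaled. There were 7.96, 8.86 and 11 miR-221-3p reads per miR-222-3p read in the 0 h libraries and 3.33, 3.36 and 4.01 in the 6 d libraries. The groups did not overlap. With 1 read added to each, the log2 ratio of miR-222-3p to miR-221-3p was higher at 6 d by 1.37 ± 0.16 (SE, n = 3 each, exact two-sided permutation p = 0.1, the smallest that 3 against 3 libraries allow, 0.2 adjusted over 4 ratios). With every library thinned to 617069 reads the difference was 1.24. Of the family's reads miR-222-3p made up 9.42% ± 1.36 at 0 h and 21.5% ± 1.8 at 6 d (SD, n = 3 in either group), and miR-221-3p 85.9% ± 1.47 and 76.2% ± 1.55.

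The minor arm mmu-miR-221-5p stood at 18.7, 13.5 and 18.4 normalised CPM at 0 h and at 8.27, 6.62 and 9.02 at 6 d, on 13, 5 and 10 reads. On this scale all 6 d libraries were below all 0 h libraries, but the log2 fold change of -0.99 ± 0.38 (SE) did not pass the threshold (limma adjusted p = 0.062, 95% interval -1.83 to -0.15). The separation depended on the scaling. With library totals alone the groups overlapped, as 6 d replicate 3 lay above 0 h replicate 2 (16.2 against 10.2 CPM). The log2 fold change was then -0.56 (limma adjusted p = 0.48), and after thinning it was -0.50 (limma adjusted p = 0.54). With a filter of 10 or more in 3 libraries the limma adjusted p of miR-221-5p was 0.041. It passed that filter through the 0 h libraries alone, so no call is taken from it. The arm ratio of miR-221 was also compared, with limma over the 116 precursors that had both arms tested and 1 read added to each arm. Its log2 ratio of 5p to 3p differed by -0.83 ± 0.40 (SE, limma adjusted p = 0.14, 95% interval -1.77 to 0.11). The arm miR-222-5p had 3 reads at 0 h and 2 at 6 d in all, too few to compare.

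**Figure D2:**
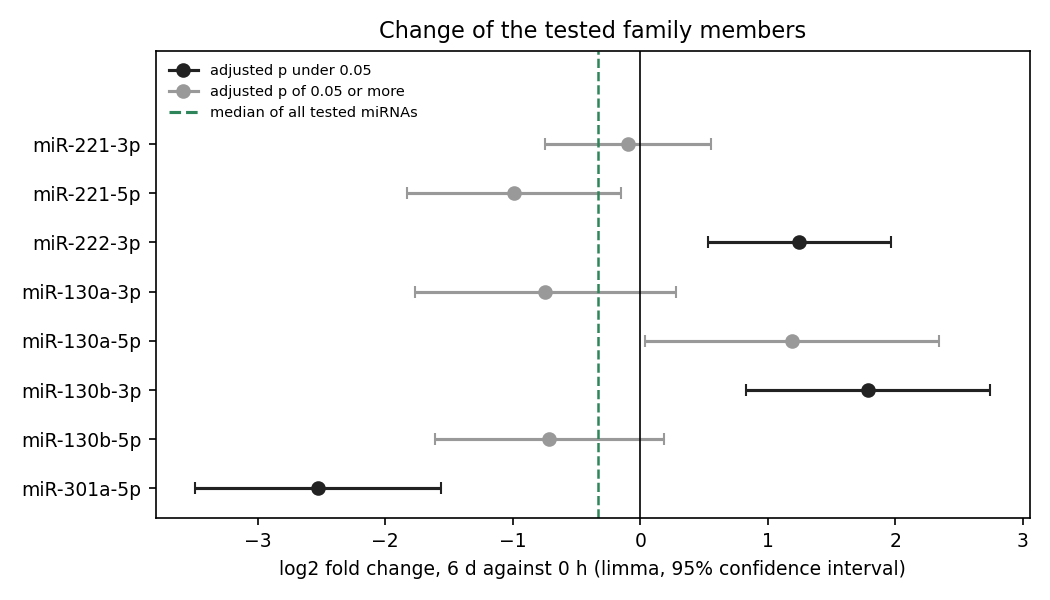
Log2 fold change of the 8 tested members at 6 d against 0 h (points) with limma's 95% confidence interval (bars); black marks members called, grey those not called, and the dashed line the median of all tested miRNAs at -0.33. The intervals of miR-222-3p, miR-130b-3p and miR-130a-5p lie above 0 and those of miR-301a-5p and miR-221-5p below it; miR-130a-5p and miR-221-5p did not pass after adjustment over all tested miRNAs.

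In the miR-130 and miR-301 family the angiogenic mmu-miR-130a-3p stood at 37.2, 30.3 and 45.9 normalised CPM at 0 h and at 38.8, 22.5 and 11.7 at 6 d. The 6 d libraries were spread over 11.7 to 38.8 and overlapped those of 0 h. The log2 fold change was -0.74 ± 0.46 (SE, limma adjusted p = 0.22, 95% interval -1.77 to 0.28). The 6 d values rest on 61, 17 and 13 reads.
Its other arm, mmu-miR-130a-5p, was counted 3, 2 and 5 times at 0 h and 2, 5 and 2 times at 6 d, or 0.730, 0.332 and 0.772 normalised CPM against 1.27, 6.62 and 1.80. The 6 d libraries were higher and uneven, and they alone carried it past the filter. Its log2 fold change was 1.19 ± 0.52 (SE), with a limma adjusted p of 0.094, or 0.17 with no filter. At 6 d replicates 1 and 3 lay under the floor of 3 reads.

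The 3p arm of miR-130b rose and its 5p arm was not called. For mmu-miR-130b-3p the levels were 1.46, 2.16 and 0.618 normalised CPM at 0 h (6, 13 and 4 reads) and 8.27, 6.62 and 6.32 at 6 d (13, 5 and 7 reads). Every 6 d library was higher, with a log2 fold change of 1.79 ± 0.43 (SE, limma adjusted p = 0.0097) and an edgeR log2 fold change of 2.48 (adjusted p = 0.0039). Without these 6 d libraries miR-130b-3p would not have passed the filter, and with no filter its limma adjusted p was 0.019. Pooled over libraries, the 6 d level was 5.25 times that at 0 h (exact 95% interval for counting error 2.86 to 9.68). The call was lost after thinning to the smallest library, where the log2 fold change was 2.04 (limma adjusted p = 0.059, median of 10 draws).
For mmu-miR-130b-5p the levels were 11.2, 9.82 and 11.1 normalised CPM at 0 h and 7, 3.97 and 8.12 at 6 d. On this scale all 6 d libraries were lower, and the log2 fold change of -0.71 ± 0.40 (SE) did not pass the threshold (limma adjusted p = 0.19, 95% interval -1.61 to 0.18). With library totals alone the groups overlapped, and the log2 fold change was -0.30 (limma adjusted p = 0.74).

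The 5p arm held most miR-130b reads at 0 h, with 88.5%, 81.9% and 94.7% in the 3 libraries, from 52, 72 and 76 reads by both arms. At 6 d it held 45.8%, 37.5% and 56.2%, from 24, 8 and 16 reads. For the smallest of these libraries, 6 d replicate 2, the exact 95% binomial interval was 8.52% to 75.5%. The groups did not overlap, and the log2 ratio of the arms, 5p to 3p, fell by 3.07 ± 0.56 (SE, n = 3 each, limma adjusted p = 0.0070). The 3p arm would not have entered this test without its 6 d libraries, where it was high, so the value is a description. Of all 116 precursors 38.8% were called in either direction, with 19.8% moving to the 5p arm and 19% to the 3p arm.
For miR-130a the log2 ratio of 5p to 3p was higher at 6 d by 2.89 ± 0.73 (SE, n = 3 each, limma adjusted p = 0.023). It rests on 19 reads of the 5p arm in all libraries, and this arm entered the test through its 6 d libraries alone, so the value is a description. The call was lost after thinning (1.2, limma adjusted p = 0.20), and when any 1 library other than 6 d replicate 1 was left out (limma adjusted p of 0.0501 without 0 h replicate 3 to 0.063 without 6 d replicate 2, with 0.051, 0.061 and 0.058 without 0 h replicate 1, 0 h replicate 2 and 6 d replicate 3).

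Between the paralogs there were 25.5, 14.0 and 74.2 miR-130a-3p reads per miR-130b-3p read at 0 h and 4.69, 3.40 and 1.86 at 6 d. The groups did not overlap. With 1 read added to each, the log2 ratio of miR-130b-3p to miR-130a-3p was higher at 6 d by 3.18 ± 0.75 (SE, n = 3 each, exact two-sided permutation p = 0.1, adjusted 0.2). After thinning the difference was 2.19.
Of the family's reads miR-130b-3p made up 2.46% ± 1.68 at 0 h and 17.2% ± 3.5 at 6 d (SD, n = 3 in either group). The family numbered 251 to 493 reads per library at 0 h and 32 to 88 at 6 d.

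**Figure D3:**
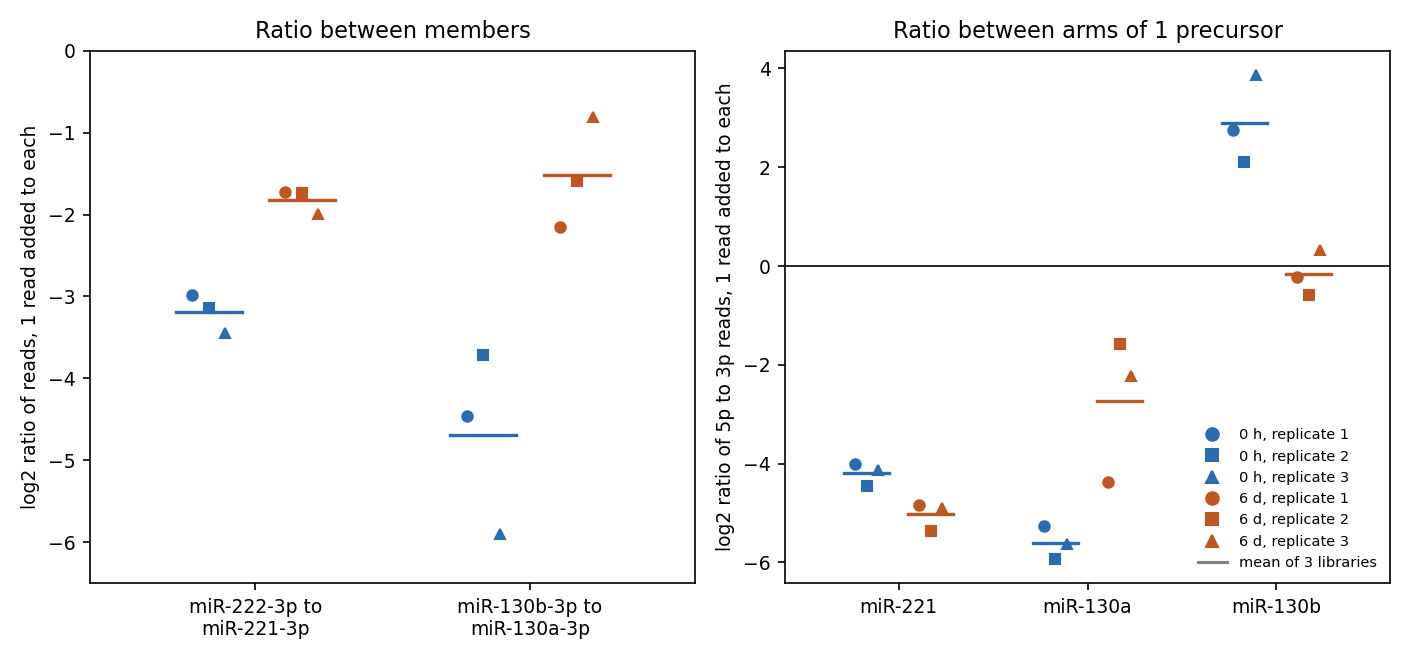
Log2 ratio of reads in each library, with 1 read added to each count, between members that share a seed (left) and between the 5p and 3p arms of 1 precursor (right); 0 h in blue, 6 d in orange, a symbol per replicate, lines at the means. The miR-222-3p to miR-221-3p ratio has means of -3.19 and -1.82, and the miR-130b arm ratio means of 2.90 and -0.16.

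The largest log2 fold change among the 8 tested members was that of mmu-miR-301a-5p. It stood at 8.28, 8.15 and 15.3 normalised CPM at 0 h, from 34, 49 and 99 reads. In each 6 d library it had 1 read, which is 0.637, 1.32 and 0.903 normalised CPM and under the floor of 3 reads. At the 0 h level 36.3 reads would have been counted at 6 d, against 3 found. It fell by 2.53 ± 0.43 on the log2 scale (SE, limma adjusted p = 0.0017), and by edgeR the log2 fold change was -3.42 (adjusted p = 0.0029). Without its 0 h libraries it would not have passed the filter, and with no filter its limma adjusted p was 0.0021. Pooled over libraries, the 6 d level was 0.0796 times that at 0 h (exact 95% interval for counting error 0.0163 to 0.236).

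For mmu-miR-301a-3p, which carries the family seed, 6, 5 and 9 reads were counted at 0 h (1.46, 0.831 and 1.39 normalised CPM) and 0 in each 6 d library. A count of 0 allows up to 1.91 to 3.97 normalised CPM at 6 d, more than was present at 0 h, so no single 6 d library could show a difference. At the 0 h level 4.22 reads would have been counted at 6 d in all, and pooled over libraries the exact 95% upper limit of the ratio of 6 d to 0 h was 0.979, for counting error only. With no filter its log2 fold change was -1.14 (95% interval -1.95 to -0.34), which did not pass the threshold (limma adjusted p = 0.055) and depends on the pseudocount. At 0 h the 5p arm held 85.0%, 90.7% and 91.7% of the miR-301a reads.
The 2 arms of miR-301b were barely present. There were 10 reads of miR-301b-5p at 0 h and 1 at 6 d, and 2 and 1 of miR-301b-3p. With 1 read added to each, the log2 ratio of miR-130b-3p to miR-301b-3p was higher at 6 d by 0.49 ± 0.61 (SE, exact two-sided permutation p = 0.6, adjusted 0.8). Of miR-301b-3p there was 0 or 1 read in every library. For miR-301a-3p to miR-130a-3p the log2 difference was 0.12 ± 0.68 (SE, exact two-sided permutation p = 0.9, adjusted 0.9). As miR-301a-3p had 0 reads in each 6 d library, that sign rests on the added read, and with 0.5 read added the difference was -0.75. The sign of both also changed when single libraries were left out.

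**Figure D4:**
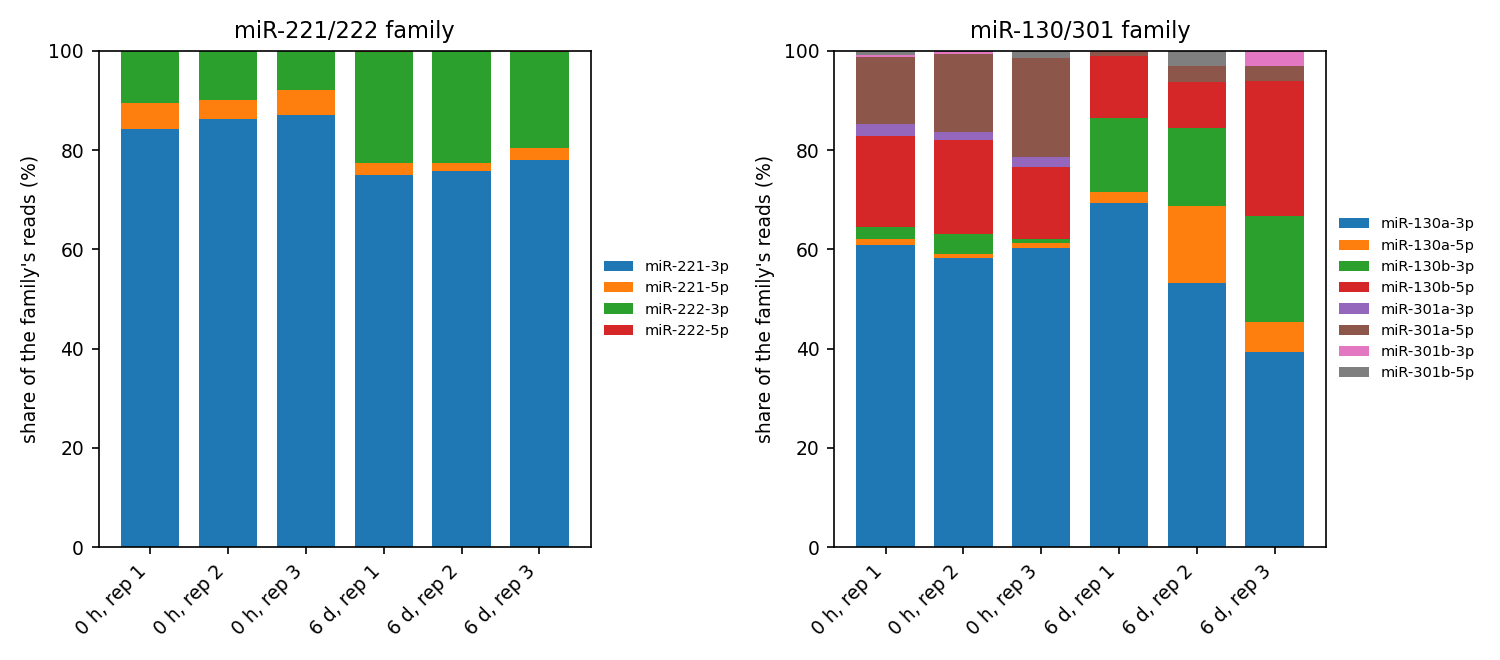
Share of each family's reads (percent, stacked bars) held by its members in each library, miR-221 with miR-222 on the left and miR-130 with miR-301 on the right. The share of miR-222-3p lies between 7.92% and 10.6% at 0 h and between 19.4% and 22.6% at 6 d, and the right-hand bars at 6 d rest on 88, 32 and 33 reads.

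The miRNAs most like a member were found among the 271 tested miRNAs outside the families with a mean of at least 10 normalised CPM. Likeness was the root mean square difference of the log2 profiles over the 6 libraries, each centred on its mean. Nearest to miR-221-3p were let-7b-5p (0.10), miR-29a-3p (0.16) and miR-148b-5p (0.20), and the median over all candidates was 0.77. Nearest to miR-222-3p were miR-652-3p (0.16), miR-25-3p (0.19) and miR-92a-3p (0.22), against a median of 1.10. Nearest to miR-130a-3p were miR-29c-5p (0.15), the smooth muscle miRNA miR-143-3p (0.17) and miR-450a-5p (0.23), against 0.88. The cluster partners miR-221-3p and miR-222-3p were 0.69 apart, and 111 of the 271 candidates lay nearer to miR-221-3p than its partner did. These are descriptions over 6 libraries that share their scaling.

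Other miRNAs with known roles in vessels were taken from a list of 30, of which 29 were tested. Of these 3 rose (10.3%) and 6 fell (20.7%), against 16% and 21.9% of all tested miRNAs, and the median log2 fold change was -0.40. The most abundant of the rises were miR-21a-5p (log2 fold change 1.24 ± 0.40), a miRNA of injury and fibrosis, miR-16-5p (1.93 ± 0.55), which restrains the cell cycle, and miR-92a-3p (1.2 ± 0.31), which restrains angiogenesis (SE, limma adjusted p of 0.035, 0.022 and 0.013). The most abundant of the falls were the endothelial miR-126a-3p (-1.33 ± 0.32), miR-27b-3p (-0.86 ± 0.30) and miR-27a-3p (-1.11 ± 0.34), with limma adjusted p of 0.0095, 0.049 and 0.026. Of 17 alternatives, the call of miR-27b-3p was lost in 13 (adjusted p up to 0.48) and that of miR-27a-3p in 9 (up to 0.33), RLE factors and edgeR among them for both. The call of miR-21a-5p was lost with no filter, without any 1 of the 0 h libraries and without 6 d replicate 1 (adjusted p up to 0.12). For miR-16-5p it was lost when 0 h replicate 3, 6 d replicate 1 or 6 d replicate 2 was left out (up to 0.074), that of miR-92a-3p without 0 h replicate 1 (0.061), and that of miR-126a-3p with library totals alone (0.11). With library totals alone 5 rose and 0 fell, and the median was 0.024.
Among the marker lists, 1 of 2 endothelial and 0 of 4 smooth muscle miRNAs fell and none of them rose. The summed endothelial level was 56921 to 88648 normalised CPM at 0 h and 25279 to 35076 at 6 d, and the smooth muscle level 76203 to 80602 and 28579 to 91408. The endothelial sum mostly tracks miR-126a-3p, whose mean went from 71694 to 28363 normalised CPM. The other arm, miR-126a-5p, had means of 844 and 821 and was not called (limma adjusted p = 0.96). Within miR-126a the log2 ratio of 5p to 3p rose by 1.31 ± 0.38 (SE, limma adjusted p = 0.030). Whether the amount of endothelial tissue differed was not tested.
Other tissues' markers moved with the interval. All 6 epithelial markers rose (summed level 61.3 to 119 against 1315 to 2333 normalised CPM), as did the skeletal muscle miR-206-3p (8.34 to 15.3 against 685 to 1440) and the liver miR-122-5p (668 to 1406 against 2086 to 23460). Of 4 erythroid markers 1 rose (summed level 23041 to 30248 against 57778 to 105194), and of 4 leukocyte markers 0 were called (summed level 417 to 579 against 555 to 1026). Of 3 fibroblast markers 1 fell, while their summed level was higher at 6 d (3501 to 4882 against 5371 to 8259). That sum mostly tracks miR-199a-3p, with means of 3506 and 6316 normalised CPM, which was not called (limma adjusted p = 0.057). Among all these markers the epithelial miR-429-3p alone was at 0 in a library, 0 h replicate 1. Their part in the rises of miR-222-3p and miR-130b-3p was not tested, nor was that of the lower depth at 6 d.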

How the data were processed

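Small RNA of myocardium was sequenced in 3 libraries at 0 h and 3 at 6 d. Trizol extraction and NEBNext libraries are stated per the labels' protocols. The submitters' processing notes name FastQC, Trimmomatic 0.39, cutadapt 2.8 and STAR 2.5.3a. No source used here names the counting tool, annotation or genome build. Raw counts are deposited for 0 h replicate 1, and the other 5 deposited files hold log2(scaled reads + 1). Undoing the log2 gave whole multiples of 1 step per library for 2692 of 2692 testable values, within 0.0005 on the log2 scale, and 418 larger values were untestable. The counts of 0 h replicate 1 were put on the same scale with a factor of 0.919, derived so that the 6 factors multiply to 1. The test was limma 3.58.1 (trended, robust) with a pseudocount of 1. Arm ratios used limma with no trend. Alternatives used edgeR 4.0.16, DESeq2 1.42.0, RLE and TMM factors, library totals, pseudocounts of 0.5 and 4, other filters, a replicate block, thinning and single libraries left out.

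The members, lists and tests were chosen with earlier results of these data known. All members are named. Other named miRNAs are the 3 nearest to each of 3 members, the up to 3 most abundant called rises and falls of the vessel list, and single markers of cell types. The steps were tested on simulated data. Reads carry no molecular identifiers, so intervals and floors cover counting error only.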

Additional observations from a re-analysis of the deposited data

How the results depend on the processing

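The calls of miR-222-3p and miR-301a-5p held in every alternative that tested them, and that of miR-130b-3p in all but thinning. Some were close to the threshold without 0 h replicate 3, with limma adjusted p of 0.0495 for miR-222-3p and 0.048 for miR-130b-3p. With the filter of 10 or more neither miR-301a-5p nor miR-130b-3p was tested. At the main filter each passed only with the group where it was high, and most alternatives keep that selection. With no filter both were called (limma adjusted p of 0.0021 and 0.019). Of all miRNAs 178 were called, 75 higher and 103 lower, against 83 higher and 40 lower with library totals alone. When 1 library was left out the count ranged from 114 to 179, and that of arm ratios, 45 with all libraries, from 16 to 45, with the lowest of both without 0 h replicate 1. Arm ratios gave 23 calls without 0 h replicate 2 and 26 without 0 h replicate 3. The log2 fold change of miR-221-3p turned positive, without a call, with RLE factors (0.13), library totals alone (0.36), edgeR (0.081), DESeq2 (0.13) and thinning (0.29). The log2 difference of the miR-301a-3p to miR-130a-3p ratio was -0.75 with 0.5 read added, -0.49 after thinning and -0.30 to 0.77 with 1 library left out. That of miR-130b-3p to miR-301b-3p was -0.020 to 0.88 with 1 library left out. The difference in the share of all reads held by the miR-130 and miR-301 rows was then -0.0013 to 7.8e-05 percentage points, and that of the miR-221 and miR-222 rows, 0.0164 with all libraries, ranged from 0.00627 without 6 d replicate 3 to 0.0259 without 6 d replicate 1. For these changes the cause was not tested. With the replicate block 195 miRNAs and 37 arm ratios were called and no member's call changed. The deviations of libraries with the same number had correlations of 0.068, 0.064 and 0.27. For 0 h replicates 2 and 3 the library of the same number was the closest at 6 d, and for 0 h replicate 1 it was 6 d replicate 2 (0.16). Correlations over so few libraries cannot settle whether the numbers pair them. The sample titles state no pairing, so none was used in the main fit. At 6 d levels under 1.91 to 3.97 normalised CPM are below 3 reads.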
